A study of Mus musculus with 18 samples.

Results

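The comparison described here is the first 45 min of mRNA decay in wild-type (WT) macrophages, and its members are 6 of the 18 arrays of the series: the 3 arrays of WT cells at 45 min and the 3 of WT cells at 0 min. They were chosen by the genotype and time in their labels, and the arrays of the same replicate number formed 3 pairs. All groups were macrophages grown from the bone marrow of C57Bl/6 mice in medium with M-CSF, the growth factor that drives marrow precursors into macrophages, and all received lipopolysaccharide (LPS), a bacterial cell wall component, for 3 h. The medium was then exchanged for one that held the transcription blocker actinomycin D together with the p38 kinase inhibitor SB203580, and RNA was taken after 0, 45 or 90 min. The WT cells carried no named allele, and the cells used beside them were TTP-/- (KO), in the same 3 times. The sources used here do not give the age or number of the mice or say whether replicates were separate cultures, so the p-values reflect only how far these arrays spread, and that spread may be technical.

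An mRNA falls after a transcription block because no new copies replace those that are degraded, so the size of the fall measures how short-lived the mRNA is. Many mRNAs of the inflammatory response are short-lived because they carry AU-rich elements, which are bound by tristetraprolin (TTP, encoded by Zfp36), a protein that recruits the enzymes that shorten the poly(A) tail. Kinase signalling through p38 restrains TTP, and LPS induces Zfp36 itself, so a p38 inhibitor is used to look at decay with TTP active. Both agents were added together here, so their parts in a change cannot be told apart.

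The array values are log2 intensities, and every change is a log2 difference of 45 min minus 0 min, so that -1 is a fall to 1 part in 2 of the starting signal. The authors' normalization brings the arrays toward a shared distribution. Each change is therefore set against the average mRNA of its array, and a loss shared by all mRNAs is not visible. Array medians lay between intensities of 7.41 and 8.19 over the 18 arrays. The highest intensity of an array lay between 7379 (WT 0 min replicate 1) and 14337 (WT 0 min replicate 3), so differences between arrays remained. The number of arrays limits the precision. All 12 macrophage markers measured were above the signal limit, a log2 intensity of 3.03, with a median of 9.67 at 0 min and 9.50 at 45 min and a summed intensity of 13760 to 17330 at 0 min and 13920 to 15660 at 45 min. Of 53 markers of 8 other cell types, 10 passed that limit in some group, the brightest being Itgax of the dendritic cell list with 5.58 and Col1a1 of the fibroblast list with 3.98. In these bulk samples, fewer cells of a type and less RNA per cell cannot be told apart.

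The replicate 3 arrays stood apart from the others. On the first principal component of the 6 arrays, which held 59.1% of the variance, WT 0 min replicate 3 lay at -37.4 and the other 0 min arrays at 26.8 and 20.9, whereas the 45 min arrays lay at 5.04, 5.31 and -20.7. In the sample titles, the third replicate of each group carries lower numbers (series A here) and replicates 1 and 2 higher ones (series B); nothing in the labels says what the numbers stand for. Correlations within the groups were 0.973 to 0.991 at 0 min and 0.988 to 0.995 at 45 min, and no 2 arrays were identical. Results are therefore also given within series B and without WT 0 min replicate 3.

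By 45 min, 25 genes had fallen and 1 had risen among 10258 tested. Among the genes that fell were those of the phosphatases Dusp2 and Dusp1, of TTP itself (Zfp36), of the cytokines Tnf, Il10, Csf2 and Tnfsf9, of the neutrophil chemoattractants Cxcl1 and Cxcl2, and of signalling and survival genes such as Rgs1, Ier3, Cebpd, Edn1 and Gadd45b. Also among them were 3 histone genes, the small nucleolar RNA Snord87 and the spliceosomal RNA Rnu12. The 25 are 0.244% of the genes tested and the 1 gene that rose is 0.00975% (limma, two-sided, Benjamini-Hochberg adjusted p below 0.05); at an unadjusted p below 0.05 there were 423 lower and 245 higher. All 25 were lower at 45 min in each of the 3 pairs, as were 1992 of the 10258 genes tested. In all 25 every 45 min array lay below every 0 min array, a separation that 684 genes (6.67%) showed over all genes tested. The median change of all genes was -0.01, with quartiles of -0.14 and 0.14.

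**Figure D1:**
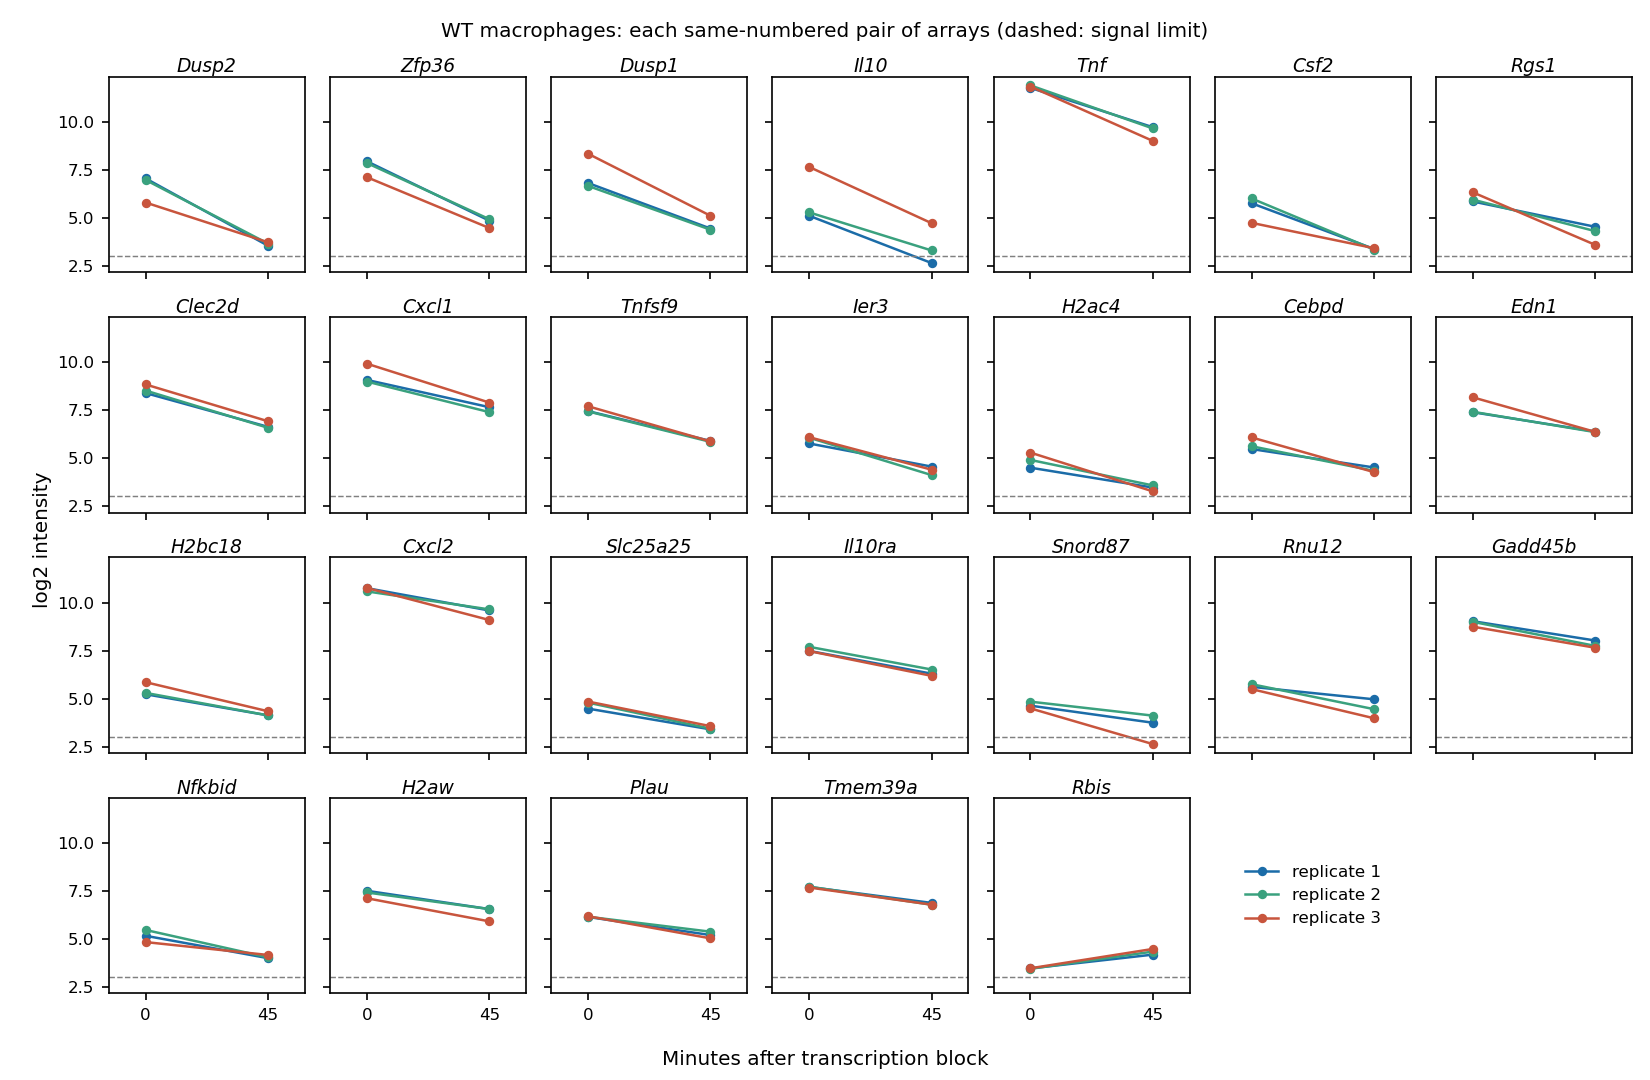
Log2 intensity of each WT array at 0 and 45 min (minutes after transcription block on the x axis), with 1 panel per gene past the threshold, lines joining arrays of the same replicate number and a dashed line at the signal limit of 3.03. The lines of 25 genes run downward in all 3 pairs and those of Rbis upward, and Il10 replicate 3 runs from 7.65 to 4.72, above the other pairs.

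The counts depended on single arrays. When WT 0 min replicate 3 was left out, 139 genes were lower (1.36%) and 817 higher (7.96%), all 25 genes remaining among the 139. Of those 139 genes 117 were also lower in pair 3, and of the 817 higher ones 111 were higher in pair 3. The 45 min array of pair 3 stayed in that fit, so these counts are no independent check. Pair 3 was also shifted down over all genes, with a median change of -0.103, against 0.0511 and -0.00195 in pairs 1 and 2. Over all genes tested, more were thus lower than higher in pair 3. The counts in pair 3, here and within series B, include that shift. Within series B, 47 genes were lower (0.458%), 23 of the 25 among them, and 43 of the 47 were also lower in pair 3. The same fit had 340 genes higher (3.31%), of which 41 were higher in pair 3. Snord87 (limma adjusted p 0.0506) and H2aw (0.0570) were the 2 of the 25 lost within series B. The count of genes that fell was 12 when WT 0 min replicate 2 was left out, 14, 8 and 9 when the 45 min replicates 1, 2 and 3 were, and 40 when KO 90 min replicate 2 was, an array that enters the fit only through the shared estimate of the spread. Without the pairing of replicates 13 of the 25 passed, and Dusp1, Il10, Rgs1, Cxcl1, Ier3, H2ac4, Edn1, Slc25a25, Snord87, Rnu12, Nfkbid and H2aw did not. Dusp2, Zfp36, Il10, Tnf, Csf2, Cxcl1, Gadd45b and Plau, 8 of the 25, passed whichever of the 18 arrays was left out. Dusp1 lost its call in 5 of these 18 fits, each time without a compared WT array, Rgs1 in 3 and Clec2d in 1. Other calls were kept less often. Snord87 passed in only 6 of the 18 fits, H2ac4 in 8, Edn1 in 9 and Nfkbid and H2aw in 11 each.

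**Figure D2:**
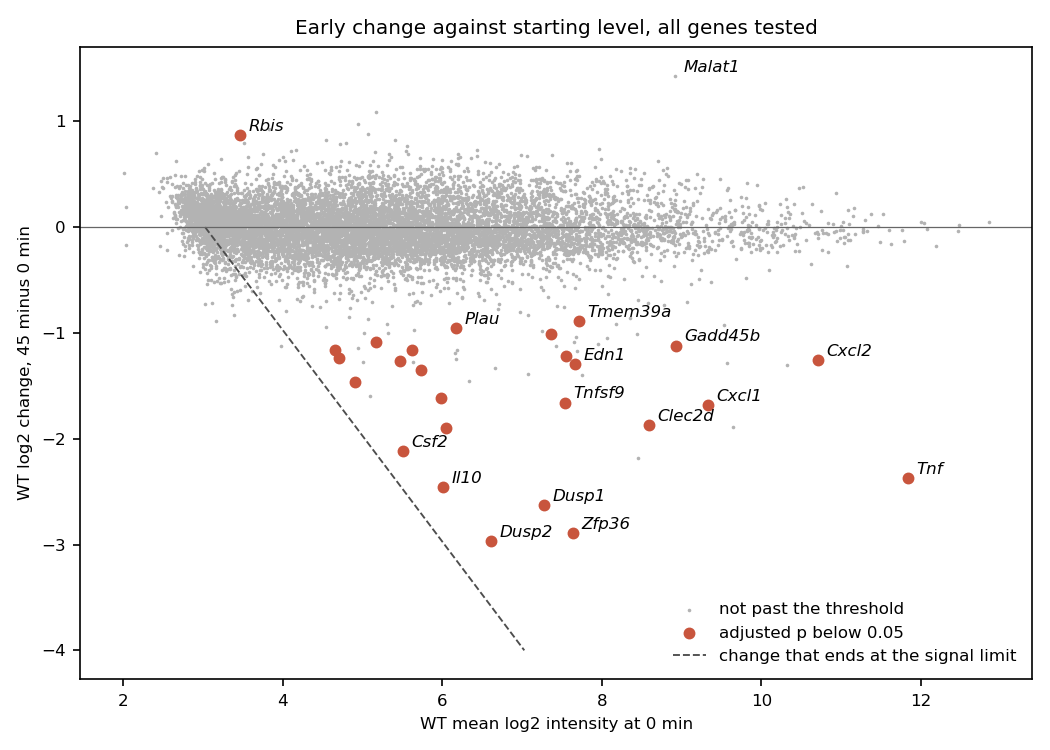
Log2 change in WT from 0 to 45 min (y axis) against the mean log2 intensity at 0 min (x axis) for the 10258 genes tested, with genes past the threshold in red and a dashed line where a fall ends at the signal limit. Tnf stands at the right with a start of 11.84 and a change of -2.37, Dusp2, Il10 and Csf2 end near the limit, and Malat1 has the highest change, 1.43, without passing.

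The genes that fell include cytokines and proteins known to restrain inflammatory signalling, and their promoters give context for how they were transcribed before the block. In the RefSeq promoter table of GRCm38.p6, 17 of the 25 genes had an entry, with 22 promoters from 250 bases before to 50 after the start. The base letters below are the 250 bases before the start of Tnf, of Zfp36, of both feedback genes with a CRE octamer (Dusp1 and Nfkbid) and of Gadd45b, given 5′ to 3′ on the gene's strand. Capitals mark the TATA box TATAAA, the cyclic AMP response element (CRE) octamer TGACGTCA and kB-like sites of the form GGGNNNNNCC, each searched on both strands and allowed to overlap.
Tnf, minus strand, chr17:35202008-35202257: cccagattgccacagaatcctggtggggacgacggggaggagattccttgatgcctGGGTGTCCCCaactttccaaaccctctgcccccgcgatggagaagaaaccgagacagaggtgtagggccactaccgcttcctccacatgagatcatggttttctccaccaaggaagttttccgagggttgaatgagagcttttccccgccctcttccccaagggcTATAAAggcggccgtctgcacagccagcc
Zfp36, minus strand, chr7:28379229-28379478: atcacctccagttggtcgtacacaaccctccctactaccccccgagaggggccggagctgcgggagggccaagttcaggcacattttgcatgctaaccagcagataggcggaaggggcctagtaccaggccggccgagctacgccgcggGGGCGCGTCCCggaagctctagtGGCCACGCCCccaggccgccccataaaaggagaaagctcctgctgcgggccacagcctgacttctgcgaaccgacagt
Dusp1, minus strand, chr17:26508473-26508722: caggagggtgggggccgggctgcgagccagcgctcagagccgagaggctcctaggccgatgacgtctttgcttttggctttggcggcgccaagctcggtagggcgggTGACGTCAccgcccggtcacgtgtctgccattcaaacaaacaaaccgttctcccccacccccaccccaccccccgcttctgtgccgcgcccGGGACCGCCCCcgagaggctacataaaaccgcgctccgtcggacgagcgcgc
Nfkbid, plus strand, chr7:30422156-30422405: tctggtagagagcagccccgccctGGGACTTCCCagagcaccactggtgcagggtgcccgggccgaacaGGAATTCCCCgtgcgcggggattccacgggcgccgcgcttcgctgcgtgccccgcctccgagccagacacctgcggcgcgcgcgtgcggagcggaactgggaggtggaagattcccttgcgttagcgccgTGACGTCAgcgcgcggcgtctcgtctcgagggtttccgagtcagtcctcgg
Gadd45b, plus strand, chr10:80929841-80930090: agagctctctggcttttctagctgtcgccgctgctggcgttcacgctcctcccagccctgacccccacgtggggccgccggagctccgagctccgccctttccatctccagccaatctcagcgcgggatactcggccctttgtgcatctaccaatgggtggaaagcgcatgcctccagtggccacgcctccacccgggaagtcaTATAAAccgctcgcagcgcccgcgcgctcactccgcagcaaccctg
The TATA box of Tnf began 29 bases before the start and that of Gadd45b 46 bases before it. The CRE octamer of Dusp1 began 143 bases before the start and that of Nfkbid 51 bases before it. Nfkbid had other promoters without the octamer, and the one printed is the one that held it. Slc25a25 and Tmem39a also had promoters without it, and in Tmem39a it began 5 bases after the start. Over the whole windows the TATA box was in 3 of the 22 promoters (13.64%), against 7.08% of the 10558 promoters of tested genes, the third being that of the histone gene H2ac4. The CRE octamer was in 4 (18.18%, against 3.02%), in Dusp1, Nfkbid, Slc25a25 and Tmem39a, and a kB-like site was in 14 (63.64%, against 67.88%). The AP-1 heptamer TGACTCA was in 0 of the 22 and in 3.78% of all. These are matches of letters and not measured binding sites.

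Tnf, which encodes the main early inflammatory cytokine of macrophages, was the brightest of the genes that fell. Its log2 intensity was 11.77, 11.90 and 11.84 in WT 0 min replicates 1, 2 and 3 and 9.72, 9.66 and 9.01 in WT 45 min replicates 1, 2 and 3. The 0 min arrays lay close together, all 45 min arrays were more than 1 log2 unit lower, and replicate 3 was the lowest at 45 min. Tnf fell by 2.37 ± 0.17 on the log2 scale (SE, n = 3 arrays per group, limma adjusted p 1.99e-06), which left 19.3% of its signal (95% interval 15.0 to 24.9%). Expressed as the time in which the signal would fall to 1 part in 2 along a straight line from 0 to 45 min, its relative half-life was 19.0 min (16.4 to 22.5 min). Its locus is chromosome 17, 35199367 to 35202007, in GRCm38.p6.

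Zfp36 (chromosome 7 from 28376784 to 28379228), the mRNA of TTP, fell together with mRNAs that TTP is reported to bind. Its signal was 7.95, 7.86 and 7.12 at 0 min and 4.86, 4.93 and 4.47 at 45 min. Replicate 3 was the lowest in both groups, and the groups were more than 2 log2 units apart. Zfp36 fell by 2.89 ± 0.29 (adjusted p 5.99e-05), leaving 13.5% (8.82 to 20.7%), a relative half-life of 15.6 min (12.9 to 19.8 min). In KO cells the row for Zfp36 still gave a mean of 6.61 ± 0.31 (SD, n = 3) at 0 min, so this row does not check the genotype.

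The other cytokine mRNAs that fell were those of Il10, which restrains macrophage activation, Csf2, the growth factor GM-CSF, and Tnfsf9, the ligand of the costimulatory receptor 4-1BB. Il10 had 5.11, 5.29 and 7.65 at 0 min and 2.65, 3.30 and 4.72 at 45 min. The replicate 3 array was more than 2 log2 units above the others at 0 min, and the 3 pairs moved alike. Il10 fell by 2.46 ± 0.25 (adjusted p 5.99e-05), and without the pairing the adjusted p was 0.386. Csf2 fell by 2.12 ± 0.28 (adjusted p 0.00157) from 5.76, 6.01 and 4.74 to 3.38, 3.35 and 3.42. At 45 min all 3 Csf2 arrays were near the signal limit, so the fall is limited by background. For Il10 this holds for replicates 1 and 2, while replicate 3 ended above the limit at 4.72 and had the largest change of the pairs, -2.93. Tnfsf9 fell by 1.66 ± 0.29 (adjusted p 0.0179) from 7.46, 7.44 and 7.71 to 5.90, 5.86 and 5.88, with the arrays of each group close together and a relative half-life of 27.1 min (19.9 to 42.8 min). The receptor subunit gene Il10ra, through which IL-10 signals, fell by 1.22 ± 0.22 (adjusted p 0.0211) from 7.49, 7.70 and 7.48 to 6.30, 6.52 and 6.19.

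Of the 19 cytokine genes tested these 4 passed and 0 rose, with a list median of -0.35. The others included Il6 at -1.01 ± 0.29 (adjusted p 0.343), Il1a at -0.52, Il1b at -0.36 and Il23a at -0.35, none past the threshold. Il12b, which encodes a subunit of IL-12 and IL-23, had 9.34, 9.43 and 9.04 at 0 min and 9.88, 9.91 and 9.40 at 45 min, a change of 0.46 ± 0.19 that did not pass (adjusted p 0.748).

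Among 18 chemokine genes 2 passed, both of them neutrophil chemoattractants. Cxcl1 had 9.08, 8.996 and 9.93 at 0 min and 7.66, 7.41 and 7.90 at 45 min. It fell by 1.68 ± 0.23 (adjusted p 0.00202), with a relative half-life of 26.8 min (20.8 to 37.7 min), and every 45 min array was more than 1 log2 unit below every 0 min array. Cxcl2 fell by 1.26 ± 0.20 (adjusted p 0.00947) from 10.76, 10.59 and 10.77 to 9.60, 9.65 and 9.10, the lowest being replicate 3 as for Tnf. The related Cxcl3 had a change of -0.06 ± 0.16, with 8.73, 8.89 and 9.93 at 0 min and 8.81, 9.14 and 9.40 at 45 min, so its groups overlapped. Chemokines at high signal that did not pass were Cxcl10 at 0.04 ± 0.14, Ccl5 at 0.11 ± 0.14 and Ccl3 at -0.17 ± 0.13, and Ccl2 had -0.70 ± 0.23 (adjusted p 0.463). The list median was -0.11.

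Phosphatase genes, whose products switch off MAP kinases, were among the largest falls. Dusp2 had 7.05, 6.98 and 5.80 at 0 min and 3.55, 3.66 and 3.73 at 45 min. The 0 min replicate 3 array was more than 1 log2 unit below the other 0 min arrays, whereas the 45 min arrays lay together near the signal limit. Dusp2 fell by 2.97 ± 0.27 (adjusted p 3.16e-05), leaving 12.8% (8.56 to 19.2%). Its 45 min signal was within 1 log2 unit of the limit, so no half-life is given. Dusp1, which dephosphorylates p38 itself, had 6.82, 6.67 and 8.34 at 0 min and 4.44, 4.38 and 5.11 at 45 min. Here replicate 3 was the highest array of both groups, whereas for Dusp2 it was the lowest at 0 min. Dusp1 fell by 2.63 ± 0.45 (adjusted p 0.0161), with a relative half-life of 17.1 min (12.6 to 26.8 min), and without the pairing the adjusted p was 0.302. These were the 2 of 14 MAP kinase phosphatase and Sprouty genes that passed, and the list median was -0.19.

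Among the feedback inhibitors of NF-kB, the transcription factor that LPS activates, 1 of 16 passed. Nfkbid, an inhibitor-like protein of the nucleus, fell by 1.09 ± 0.21 (adjusted p 0.0344) from 5.18, 5.48 and 4.85 to 4.01, 4.05 and 4.18. Larger changes in this list missed the threshold. Tnfaip3, which encodes the ubiquitin-editing enzyme A20, had 9.37, 9.48 and 10.07 at 0 min and 7.87, 7.83 and 7.54 at 45 min, a change of -1.89 ± 0.39 (adjusted p 0.0578). Nfkbia, the inhibitor IkB alpha, had -1.30 ± 0.44 (adjusted p 0.543), with 9.87, 10.07 and 11.01 before and 8.90, 8.89 and 9.27 after. In both genes every 45 min array lay below every 0 min array, as it did in 6.67% of all genes tested. The same held for Socs3, an inhibitor of cytokine receptor signalling, with 8.22, 8.35 and 8.77 at 0 min, 6.06, 6.42 and 6.32 at 45 min and a change of -2.18 ± 0.46 (adjusted p 0.0647). Of the 7 SOCS genes 0 passed in limma, against 3 lower at an unadjusted p below 0.05. All 7 had a change below 0, against 51.3% of all genes, with a median of -0.28.

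A list of other short-lived signalling genes held 3 of the genes that fell. Clec2d, a ligand of an inhibitory natural killer cell receptor, fell by 1.87 ± 0.27 (adjusted p 0.00380) from 8.40, 8.53 and 8.85 to 6.64, 6.59 and 6.93. Rgs1, which shortens signals from G protein-coupled receptors, fell by 1.90 ± 0.34 (adjusted p 0.0194) from 5.85, 5.95 and 6.33 to 4.54, 4.31 and 3.59. Replicate 3 of Rgs1 started highest and ended lowest, so its pair gave the largest change. Edn1, the precursor of the vasoconstrictor endothelin 1, fell by 1.29 ± 0.25 (adjusted p 0.0344) from 7.40, 7.42 and 8.18 to 6.39, 6.36 and 6.37. These were 3 of the 15 genes tested in that list. All 15 had a change below 0, against 51.3% of all genes, with a median of -0.49. The list was chosen for short-lived mRNAs with earlier results of these data known, so its direction is no independent evidence. The kinase gene Plk2 in that list had -1.40 ± 0.41 and did not pass (adjusted p 0.356).

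Of 21 immediate early transcription factor genes and their companions 1 passed, Ier3, a regulator of cell survival, which fell by 1.61 ± 0.30 (adjusted p 0.0297) from 5.77, 6.07 and 6.10 to 4.57, 4.13 and 4.41. The list median was -0.37 and 17 of the 21 were below 0 (81%, against 51.3% of all genes). Values that did not pass were -1.46 ± 0.40 for Csrnp1, -1.33 ± 0.37 for Junb and -0.87 ± 0.18 for Maff (adjusted p 0.0520). Fos, at -0.37 ± 0.26, was already low in signal at 0 min, with 4.06, 4.60 and 3.65. Cebpd, a C/EBP transcription factor induced by LPS, fell by 1.35 ± 0.24 (adjusted p 0.0179) from 5.48, 5.63 and 6.09 to 4.52, 4.35 and 4.28, and it was the 1 of 17 C/EBP, Irf and Myc factors to pass. Irf1 in that list had -0.92 ± 0.43 (adjusted p 0.757).

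Gadd45b, a stress sensor that acts on MAP kinase signalling, was the 1 of 17 survival and stress regulators to pass. Its signal was 9.04, 9.004 and 8.75 at 0 min and 8.03, 7.75 and 7.66 at 45 min. It fell by 1.12 ± 0.14 (adjusted p 0.000669), a small fall measured precisely, with a relative half-life of 40.2 min (31.9 to 54.3 min). The mitochondrial carrier gene Slc25a25 fell by 1.24 ± 0.21 (adjusted p 0.0149) from 4.49, 4.80 and 4.85 to 3.40, 3.44 and 3.57, near the signal limit. Plau and Tmem39a, which lie outside the rule for named genes and are named because they complete the 25, fell by 0.96 ± 0.14 (adjusted p 0.00380) and 0.89 ± 0.16 (adjusted p 0.0194). Plau encodes urokinase, a protease that activates plasminogen. Its 0 min arrays were 6.16, 6.17 and 6.19 and its 45 min arrays 5.21, 5.39 and 5.04. The arrays of Tmem39a, a membrane protein gene, were equally tight, with 7.72, 7.73 and 7.69 at 0 min and 6.89, 6.79 and 6.80 at 45 min.

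The remaining 5 genes that fell were 3 histone genes and the genes of 2 small RNAs. H2ac4 fell by 1.46 ± 0.29 (adjusted p 0.0387), H2bc18 by 1.26 ± 0.22 (adjusted p 0.0179) and H2aw, also named only to complete the 25, by 1.01 ± 0.19 (adjusted p 0.0344). They encode core histones, and since histone genes are near-identical copies the array may not separate them. Rnu12, the U12 RNA of the minor spliceosome, fell by 1.16 ± 0.19 (adjusted p 0.0149) from 5.62, 5.76 and 5.50 to 4.97, 4.46 and 3.98. Snord87, a small nucleolar RNA that guides RNA modification, fell by 1.16 ± 0.23 (adjusted p 0.0496) from 4.64, 4.85 and 4.50 to 3.75, 4.12 and 2.64. In both, pair 3 gave the largest change, and Snord87 was past the threshold in 12 of the 33 alternative settings.

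Rbis, a factor of ribosome biogenesis, was the gene that rose, by 0.87 ± 0.17 (adjusted p 0.0454). Its signal was 3.48, 3.46 and 3.48 at 0 min, just above the signal limit, and 4.19, 4.35 and 4.49 at 45 min. The call was kept in 12 of the 33 alternative settings.

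Among 23 tested mRNAs reported as TTP targets, Zfp36 itself included, 8 had fallen by 45 min: Zfp36, Dusp1, Il10, Tnf, Csf2, Cxcl1, Ier3 and Cxcl2. Over all genes tested, 0.244% had fallen. The median of the 23 was -0.53 against -0.01 for all genes, and 21 were below 0 (91.3%, against 51.3% of all genes). In 14 (60.9%) every 45 min array lay below every 0 min array, against 6.67% of all genes. By pair the list median was -0.41, -0.50 and -0.96. The list was put together with earlier results of these data known and is no independent evidence of direction. Reported targets that kept most of their signal were Ptgs2, the enzyme of prostaglandin synthesis, at -0.21 ± 0.19, Il1b at -0.36 ± 0.15 and Il12b at 0.46 ± 0.19. Ptgs2 had 10.41, 10.28 and 11.58 at 0 min and 10.52, 10.35 and 10.76 at 45 min, so its groups overlapped.

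**Figure D3:**
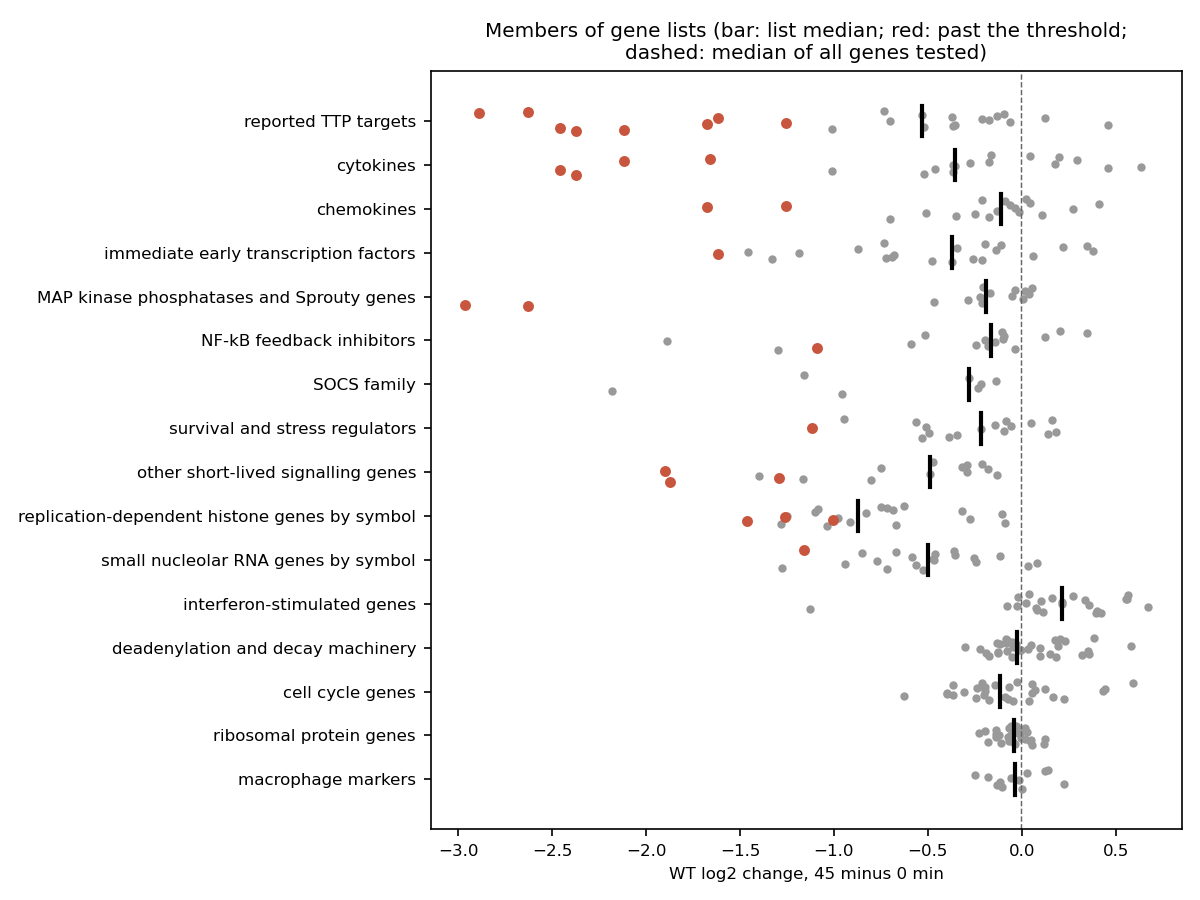
Log2 change in WT from 0 to 45 min (x axis) for each tested member of 16 gene lists (rows), with red points past the threshold, black bars at list medians and a dashed line at the median of all genes tested. The reported TTP targets have a median of -0.53 and 8 red points, whereas ribosomal protein genes and macrophage markers lie around the dashed line.

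Ribosomal protein genes, whose mRNAs are long-lived in most cells, moved little. The 31 ribosomal protein genes had changes between -0.23 and 0.12 with a median of -0.04, and 0 passed in limma, also at an unadjusted p below 0.05. The 34 genes of deadenylation and decay had a median of -0.03, and 0 passed (limma; 0 lower and 1 higher at an unadjusted p below 0.05). Interferon-stimulated genes behaved differently between the pairs. Their median over 23 genes was 0.21, with 0.51 and 0.29 in pairs 1 and 2 and -0.11 in pair 3, and 0 passed in either direction (limma; 1 lower and 5 higher at an unadjusted p below 0.05). Ifit1, an antiviral RNA-binding protein, had 9.90, 9.87 and 10.09 at 0 min and 10.69, 10.56 and 9.79 at 45 min. The 45 min arrays of replicates 1 and 2 were thus above all 0 min arrays and that of replicate 3 below them.

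The same cells were also followed to 90 min, which shows whether the early fall continued. The 45 min arrays enter both intervals, so the values are given side by side only. Between 45 and 90 min 1 gene was lower past the threshold (0.00975%), Tnf, which fell by a further 1.86 (adjusted p 7.53e-05). By 45 min Tnf had reached 56.0% of its 90 min log2 change, Cxcl1 59.5%, Tnfsf9 53.5% and Edn1 46.3%. Edn1 had a later change of -1.49 (adjusted p 0.0713). Gadd45b and Plau, by contrast, had reached 90.5% and 88.7%, with later changes of -0.12 in each, and their 45 min means of 7.81 and 5.22 were well above the signal limit of 3.03. Rgs1 had reached 87.1% and Zfp36 82.0%. For Rgs1, replicate 3 at 45 min (3.59) and the 90 min mean (3.86) were within 1 log2 unit of the limit. Dusp2, Il10 and Csf2 had reached 93.6%, 94.99% and 94.7%, with 45 min means within 1 log2 unit of the limit. The difference between the later and the earlier change passed for 0 of 10258 genes (0%) in limma, with 69 lower and 99 higher at an unadjusted p below 0.05, so no gene was shown to change its rate.

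**Figure D4:**
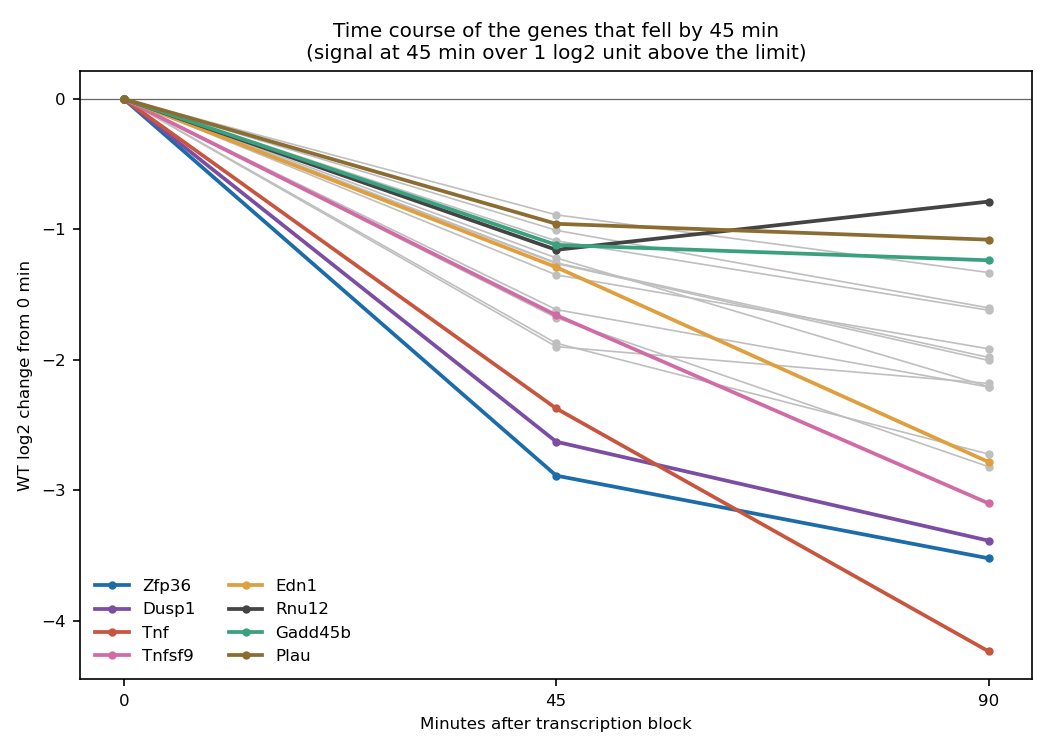
Log2 change from 0 min in WT (y axis) at 0, 45 and 90 min after transcription block (x axis) for the 19 genes that fell by 45 min and were then still more than 1 log2 unit above the signal limit, with points at fitted means and 8 genes in colour. At 90 min Tnf stands at -4.24, Gadd45b at -1.24 and Plau at -1.08, and Rnu12 moves from -1.16 to -0.79. No gene passed for a change of rate.

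In KO cells, which share no arrays with the WT comparison, 26 genes were lower at 45 min than at 0 min (0.253%), and 9 genes passed in both genotypes, 9 of the 25 in WT and 9 of the 26 in KO. These were Dusp2, Dusp1, Clec2d, Rgs1, Edn1, Cebpd, Gadd45b, H2aw and Snord87, and their changes lay close together. Dusp2 had -2.97 in WT and -2.90 in KO, Dusp1 -2.63 and -2.57, Clec2d -1.87 and -2.06, and Gadd45b -1.12 and -1.08. All 25 genes that fell in WT had a change below 0 in KO, where the median of all genes tested was itself -0.01. Cxcl2 and Rnu12 had only -0.06 each in KO, with same-numbered KO pairs of differing sign. The fitted difference of WT minus KO for Gadd45b was -0.04 with a 95% interval of -0.45 to 0.38. Wider intervals held for Dusp1 (-1.40 to 1.28), Rgs1 (-1.095 to 0.93) and Dusp2 (-0.88 to 0.76). Genotype differences within these intervals are not excluded.

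The other genes that fell in WT did not pass in KO. Tnf had a change of -0.36 ± 0.17 in KO (-0.21, -0.56 and -0.30 in the 3 same-numbered pairs) and of -2.37 in WT (-2.05, -2.24 and -2.83 in the pairs), so the pairs of the genotypes did not overlap. The difference, tested as an interaction, was -2.01 ± 0.25 (limma adjusted p 0.00337). Tnf was the 1 gene of 10258 that passed with a more negative change in WT than in KO (0.00975%). In limma 0 passed with a more positive one, against 179 more negative and 227 more positive at an unadjusted p below 0.05. The Tnf difference ranged from -2.21 to -1.76 over 31 settings and passed in 30, the exception being series B alone (-1.76, adjusted p 0.0557). Cxcl1 had -1.68 in WT and -0.12 in KO, Cxcl2 -1.26 and -0.06, Il10 -2.46 and -0.77, Zfp36 -2.89 and -1.26, Rnu12 -1.16 and -0.06 and Plau -0.96 and -0.25. Their differences did not pass, with adjusted p of 0.624 for Il10 and Cxcl1 and 0.860 for the others. Zfp36 is the gene altered in the KO cells, so its KO values may not stand for the normal mRNA. Without WT 0 min replicate 3, 47 of 10258 genes passed with a more negative change in WT than in KO. In that fit 844 passed with a more positive one, so most of its calls went the other way. Among the 47 were Tnf (-1.96, limma adjusted p 0.00263), Il10 (-1.31, 0.0108), Zfp36 (-1.83, 0.0131) and Cxcl1 (-1.46, 0.0150). Cxcl2 (-1.04, 0.0283), Csf2 (-1.36, 0.0286) and Rnu12 (-0.94, 0.0384) were also among them. Mx2 (0.85, 0.0453) was among the 844.

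**Figure D5:**
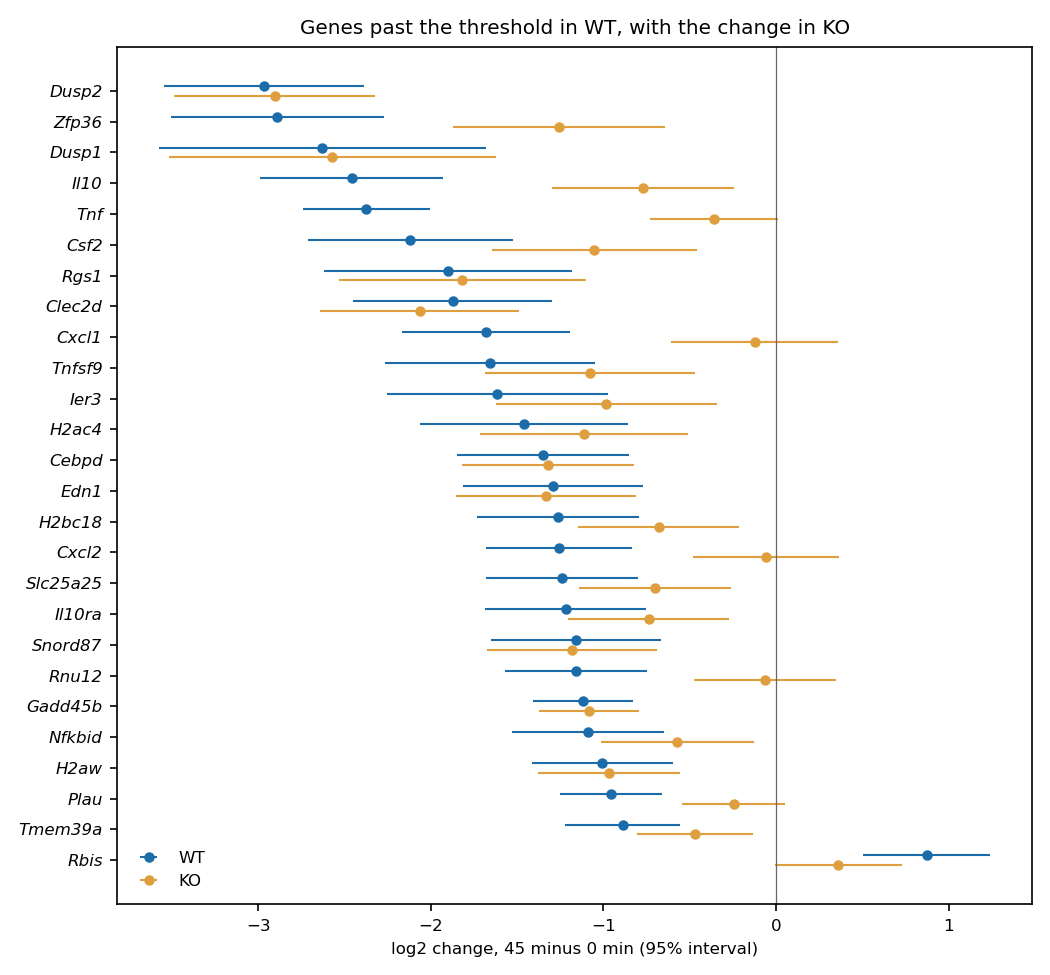
Log2 change from 0 to 45 min (x axis) with 95% limma intervals for the 26 genes past the threshold in WT, with WT in blue and KO in orange (n = 3 arrays per group). The intervals of Tnf (-2.37 in WT and -0.36 in KO), Zfp36, Il10, Cxcl1, Cxcl2, Rnu12 and Plau lie apart, whereas those of Dusp2, Dusp1 and Gadd45b nearly coincide. Only for Tnf did the difference between the genotypes pass when tested as an interaction.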

How the data were processed

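RNA from WT and TTP-/- macrophages was hybridised to 18 arrays (Affymetrix Mouse Gene ST 1.0). The authors normalized the arrays by RMA with Affymetrix Expression Console (per the submitters' processing notes), in versions that the sources used here do not give. The labels list the RNA as total RNA, but their labelling protocol names inputs of both total and nascent RNA without saying for which arrays. The deposited values were taken as intensity on a linear scale, inferred from their range, and log2 was taken with no offset. The platform annotation paired 21039 of the 25138 rows with 1 gene symbol and 1485 with several, which were not used, and did not list 2614. Symbols were updated through RefSeq (GRCm38.p6), 84 rows kept the older symbol, and the brightest row per symbol was used (19454 genes). Genes with a highest group mean of at least 3.03 (log2), the median row mean, were tested (10258).

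Group means with replicate number as a block were fitted over all 18 arrays with limma 3.58.1 in R 4.3.3 (eBayes, Benjamini-Hochberg within each contrast, 0.05). Same-numbered WT arrays at 0 and 45 min deviated together from their group means (r of 0.333, 0.469 and 0.550), so the numbers were taken to pair them; the labels do not state the pairing. Within series B, arrays of different numbers gave 0.317 and 0.276, so the values set series A apart more clearly than they separate replicates 1 and 2. Errors are SE from the model with 3 arrays per group unless SD is stated. The procedure was tested on simulated data.

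Named genes were Zfp36, the 20 largest falls and 10 largest rises past the threshold with all pairs alike and separated groups, up to 4 members past the threshold per list or the 2 largest if none passed, and genes with a genotype difference. Other list members and Malat1 were named after their values were seen. The comparison and the lists were chosen with earlier results of these data known. Relative half-lives are 45 min over the log2 fall and are not given where the 45 min mean is within 1 log2 unit of the signal limit. Alternatives covered the block, the arrays fitted, filters, an offset of 8, centring, row choice, moderation and each array left out.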

Additional observations from a re-analysis of the deposited data

Results flagged for a closer look

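The early change of Tnf differed between the genotypes. The interaction of WT minus KO was -2.013 on the log2 scale, from a change of -2.37 in WT and -0.36 in KO, below 0 in 3 of 3 pairs of each genotype and all WT pairs below all KO pairs. The test was limma's interaction contrast over all 18 arrays (adjusted p 0.00337).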

How the results depend on the processing

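The count of genes that fell in WT by 45 min, 25 with the replicate block, was 13 with no replicate block, 47 within series B with the block and 52 with centring on housekeeping genes, which moved the median change of all genes from -0.01 to -0.16. It ranged from 8 to 139 over the omissions of a single array and was 24 with the replicate block as a random effect. The count of genes that rose, 1, was 340 within series B and 0 with no replicate block, with the 9 WT or the 6 compared arrays alone, with no filter, a filter at log2 5, an offset of 8, centring on ribosomal protein or housekeeping genes, and intensity trend with robust moderation. It ranged from 0 to 817 over the omissions. The count that passed with a more negative change in WT than in KO, 1, was 0 within series B and 2 with housekeeping centring. It ranged from 1 to 47 over the omissions. The count that passed with a more positive change in WT, 0, ranged from 0 to 844. The high ends of these ranges came from leaving out WT 0 min replicate 3. No named gene past the threshold reversed its direction in the settings run. The signal over background limits the falls of Dusp2, Il10 (replicates 1 and 2), Csf2, H2ac4, Slc25a25 and Snord87, whose 45 min means were within 1 log2 unit of the limit. Single 45 min arrays of other genes, such as Rgs1 replicate 3 at 3.59, also lay that close. The cause of the moves was not tested.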

Other observations

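Histone and small nucleolar RNA genes were picked by symbol after their values were seen and are given as counts, with no test of either family. Of 28 replication-dependent histone genes measured, whose mRNAs end without a poly(A) tail, 20 were tested, 3 fell (H2ac4, H2bc18 and H2aw) and all 20 had a change below 0, with a median of -0.87 against -0.01 for all genes. In 12 of them (60%) every 45 min array lay below every 0 min array, against 6.67% of all genes. By pair the median was -0.79, -0.87 and -1.12, and in KO it was -0.65. H1f5, a linker histone, had 9.50, 9.51 and 9.70 at 0 min and 8.11, 8.29 and 8.46 at 45 min, a change of -1.28 ± 0.33 that did not pass (limma adjusted p 0.213), and its KO change was -1.70. H4c14 had -1.10 (adjusted p 0.0520). These genes share sequence, so their rows may not be independent.

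Of 20 small nucleolar RNA genes tested, 1 fell, Snord87, in a call kept in 12 of the 33 alternative settings. In all 18 of the 20 were below 0, against 51.3% of all genes, with a median of -0.50, and the pairs gave -0.23, -0.21 and -1.01. Snora3 had 4.64, 5.03 and 5.37 at 0 min and 4.03, 3.98 and 3.19 at 45 min, a change of -1.28 (adjusted p 0.0520).

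Malat1, a long nuclear noncoding RNA, had the highest change of all genes tested without passing, 1.43 ± 0.38 (adjusted p 0.238). Its signal was 8.10, 8.46 and 10.20 at 0 min and 10.59, 10.28 and 10.20 at 45 min, so replicates 1 and 2 were higher at 45 min and replicate 3 was level. Nlrc5, a regulator of MHC class I genes, showed a like split, with 4.81, 5.08 and 4.96 at 0 min and 6.27, 6.37 and 5.12 at 45 min (0.97 ± 0.22, adjusted p 0.0941), and its KO change was 0.90. Over all genes, the median change by pair was 0.0511, -0.00195 and -0.103, and 158, 35 and 4 genes were higher by more than 1 log2 unit in pairs 1, 2 and 3, while 37, 44 and 140 were lower by more than that. The part of the arrays' own differences in these values was not tested.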
